A study of Mus musculus with 16 samples.

Results

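The 10 genes described here encode proteins that the pancreatic acinar cell packs into its zymogen granules or secretes beside the digestive enzymes. Some of these proteins guard the granule, the duct or the gut lining. The genes were taken by symbol from the 24411 gene symbols counted in mouse pancreas, by a rule that names symbols only and was set with earlier results of these data known. They are Gp2, Cuzd1, Zg16, Sycn and Dmbt1, which belong to the granule membrane or its matrix, the protease inhibitors Spink1 and Serpini2, the trefoil peptide Tff2, and the secreted proteins Rnase1 and Klk1. Rnase1 (pancreatic ribonuclease) and Klk1 (tissue kallikrein) are enzymes themselves, but do not belong to the 28 amylases, lipases, elastases, trypsinogens and other digestive enzymes used below as the measure of acinar content. All 10 were present in both deposited tables, all passed the filter on low counts, and all are counted in every result below.

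Pancreas mRNA of 16 male C57BL6/J mice was sequenced at 12 weeks of age. Of these, 5 were lean wild-type (WT) mice, 7 were Lep(ob/ob) mice, which lack functional leptin and become obese, and 4 were Lep(ob/ob) mice given an antagonist of the cholecystokinin receptors (CCKRi) in the drinking water for 6 weeks from 6 weeks of age. Proglumide (0.1 mg/ml) was given to 2 of these and lorglumide (0.05 mg/ml) to the other 2, and WT and untreated Lep(ob/ob) mice drank control water. WT mice weighed 27.7 ± 3.22 g (SD, n = 5), against 51.0 ± 1.98 g (n = 7) for untreated and 54.8 ± 2.22 g (n = 4) for CCKRi-treated Lep(ob/ob) animals. Lep(ob/ob) mice lack leptin in the whole body from birth, and the sources conflict on the origin of the WT mice, which the labels describe as bred in house and the study's methods as purchased like the Lep(ob/ob) mice. If the labels hold, genotype and origin cannot be told apart.

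Acinar cells store digestive enzymes as inactive precursors in zymogen granules and release them when cholecystokinin or acetylcholine acts on the cell. The granule membrane carries glycoproteins and lectins that bind the condensed content, and the same granules hold inhibitors that keep trypsin silent inside the cell. Trefoil peptides and mucin-like glycoproteins are better known from the gut lining, where they protect the epithelium.

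RefSeq promoter windows (GRCm38.p6) were matched to 6 of the 10 genes, namely Serpini2, Sycn, Klk1, Gp2, Cuzd1 and Rnase1. No window was matched here to Zg16, Spink1, Tff2 or Dmbt1. The 250 bases before the start site are shown for 3 of them that stand for the patterns found below, Gp2 (which correlated with the digestive enzymes over all mice), Sycn (which was higher relative to the enzymes in Lep(ob/ob) mice) and Serpini2 (which correlated little with the enzymes over all mice). Both strands were searched for TATAAA, a core promoter element, and TGGGAA, a core of the site bound by the acinar factor PTF1 together with a nearby CANNTG, and capitals mark TATAAA and TGGGAA on either strand.
Gp2 (chr7:119459273-119459522, minus strand): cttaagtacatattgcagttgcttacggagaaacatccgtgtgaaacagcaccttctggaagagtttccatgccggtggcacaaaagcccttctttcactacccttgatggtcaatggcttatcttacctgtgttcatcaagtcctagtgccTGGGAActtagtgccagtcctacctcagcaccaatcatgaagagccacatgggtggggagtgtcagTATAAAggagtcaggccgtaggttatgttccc
Sycn (chr7:28540635-28540884, plus strand): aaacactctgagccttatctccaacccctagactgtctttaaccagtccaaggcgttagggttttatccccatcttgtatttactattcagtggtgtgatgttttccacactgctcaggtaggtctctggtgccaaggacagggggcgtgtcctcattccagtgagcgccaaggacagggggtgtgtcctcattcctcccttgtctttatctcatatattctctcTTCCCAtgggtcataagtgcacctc
Serpini2 (chr3:75270079-75270328, minus strand): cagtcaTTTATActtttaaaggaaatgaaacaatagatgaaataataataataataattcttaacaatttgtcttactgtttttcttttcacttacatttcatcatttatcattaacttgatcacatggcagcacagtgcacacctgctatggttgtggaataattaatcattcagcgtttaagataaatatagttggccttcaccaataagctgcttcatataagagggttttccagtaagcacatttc
The Gp2 window holds TATAAA 32 bases and TGGGAA 98 bases before the start, with CANNTG in 2 places. The Sycn window holds TGGGAA, on the opposite strand, 25 bases before the start, and neither of the other motifs. The Serpini2 window holds TATAAA only far upstream, at 244 bases and on the opposite strand, and CANNTG in 2 places. Klk1 and Rnase1 windows also hold TGGGAA and the Cuzd1 window does not, so 4 of the 6 windows carry it. Over all 32851 windows of this length, 12.4% hold TATAAA, 21.6% hold TGGGAA and 66.2% hold CANNTG.

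The labels give 2 sequencing batches. Of WT mice 3 were in batch RQ14163 and 2 in RQ15502, of untreated Lep(ob/ob) mice 4 and 3, and the CCKRi-treated mice were all in RQ15502. The gene counts of a mouse summed to 19191219 to 34452570 reads in RQ14163 and to 9870673 to 15884901 reads in RQ15502. The Lep transcript itself, which the ob mutation leaves to be transcribed, ranged from 17.5 to 64.7 normalized counts among WT mice, with untreated Lep(ob/ob) mice at 254 to 8655 and treated ones at 933 to 8797, so its level separates the genotypes as labelled. Digestive enzymes took between 44.3% and 65.6% of all counts in WT, between 43.7% and 66.3% in Lep(ob/ob) and between 32.4% and 53.6% in CCKRi-treated mice. Of the 28 enzymes, 24 passed the filter, Amy2a2, Amy2a3 and Amy2a4 were at 0 in every mouse, and Amy2a1 had no row. In batch RQ15502, Lep(ob/ob) mouse 463 and CCKRi-treated mouse 69 carried 2525 and 2571 CPM (counts scaled to the library total) of the 7 adipocyte markers together, against 27.5 to 540 in the other 14 mice. These same 2 mice had the lowest normalized count of their group in all 10 genes. Adipocyte markers also differed by genotype in RQ15502, where WT mice had 119 and 173 CPM and all Lep(ob/ob) mice, treated or not, 246 or more, while the genotypes overlapped in RQ14163. Against WT the 7 genes had a median log2 fold change of 1.47 in untreated Lep(ob/ob) mice (0 called by edgeR, 5 at an unadjusted p under 0.05). Islet markers were also higher with genotype, with WT mice at 856 to 1940 CPM for the 8 genes together, untreated Lep(ob/ob) mice at 3220 to 9634 and treated ones at 3367 to 17690. The part of fat and islet tissue in the results below was not tested.

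In the GENCODE annotation of the GRCm38 genome, which has the same sequence as the mm10 build the reads were aligned to, all 10 genes are protein coding and 6 lie on chromosome 7. These are Sycn (chr7:28540885-28542209, plus strand), Klk1 (chr7:44225360-44229618, plus strand), Gp2 (chr7:119442537-119459285, minus strand), Zg16 (chr7:127050156-127087328, minus strand), Dmbt1 (chr7:131032053-131121630, plus strand) and Cuzd1 (chr7:131308554-131322292, minus strand). Serpini2 lies at chr3:75242370-75270078, Rnase1 at chr14:51144998-51146785, Tff2 at chr17:31141049-31144282 and Spink1 at chr18:43728082-43737557, all on the minus strand. The exons of Sycn span 556 bases and those of Dmbt1 7057 bases, so levels are compared between genes only per kilobase of exon. Of 50-base stretches of the Klk1 transcript, 24% also occur in 13 Klk1b genes, whose counts together came to 3.38% of those of Klk1, and no such stretch was shared for the other 9 genes. Fgfr2 overlaps Cuzd1 on the same strand and Dmbt1 on the opposite strand, Samd4b overlaps Sycn, and noncoding or pseudogene models overlap Zg16 and Klk1 on the opposite strand. The libraries were strand-specific, but the strand setting used in counting is not given in the sources used here.

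The share of all counts that fell on the 10 genes was between 5.40% and 6.42% in WT, between 4.77% and 7.01% in untreated and between 3.95% and 5.61% in treated Lep(ob/ob) mice. Per kilobase of exon, Rnase1 was the most abundant in every group, at 441575 ± 211532 normalized counts (SD, n = 5) in WT, 366076 ± 138129 (n = 7) in Lep(ob/ob) and 141314 ± 70796 (n = 4) in CCKRi-treated mice. Cuzd1 was the least abundant in every group, at 16132 ± 5523 per kilobase in WT, 11795 ± 3633 in Lep(ob/ob) and 5690 ± 1753 in CCKRi-treated mice. In WT the order by mean level per kilobase was Rnase1, Zg16, Sycn, Klk1, Tff2, Gp2, Dmbt1, Spink1, Serpini2 and Cuzd1. In Lep(ob/ob) mice Sycn stood above Zg16, and Dmbt1 above Tff2 and Gp2. In CCKRi-treated mice Tff2 and Spink1 stood above Klk1. These orders pool both batches in the untreated groups, whereas all treated mice were in RQ15502, where Tff2 stood above Klk1 by mean in WT mice too. In untreated Lep(ob/ob) mice of RQ15502 Dmbt1 stood below Tff2 and Gp2 by mean. Every pair of neighbours in these orders overlapped in its values over mice.

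**Figure D1:**
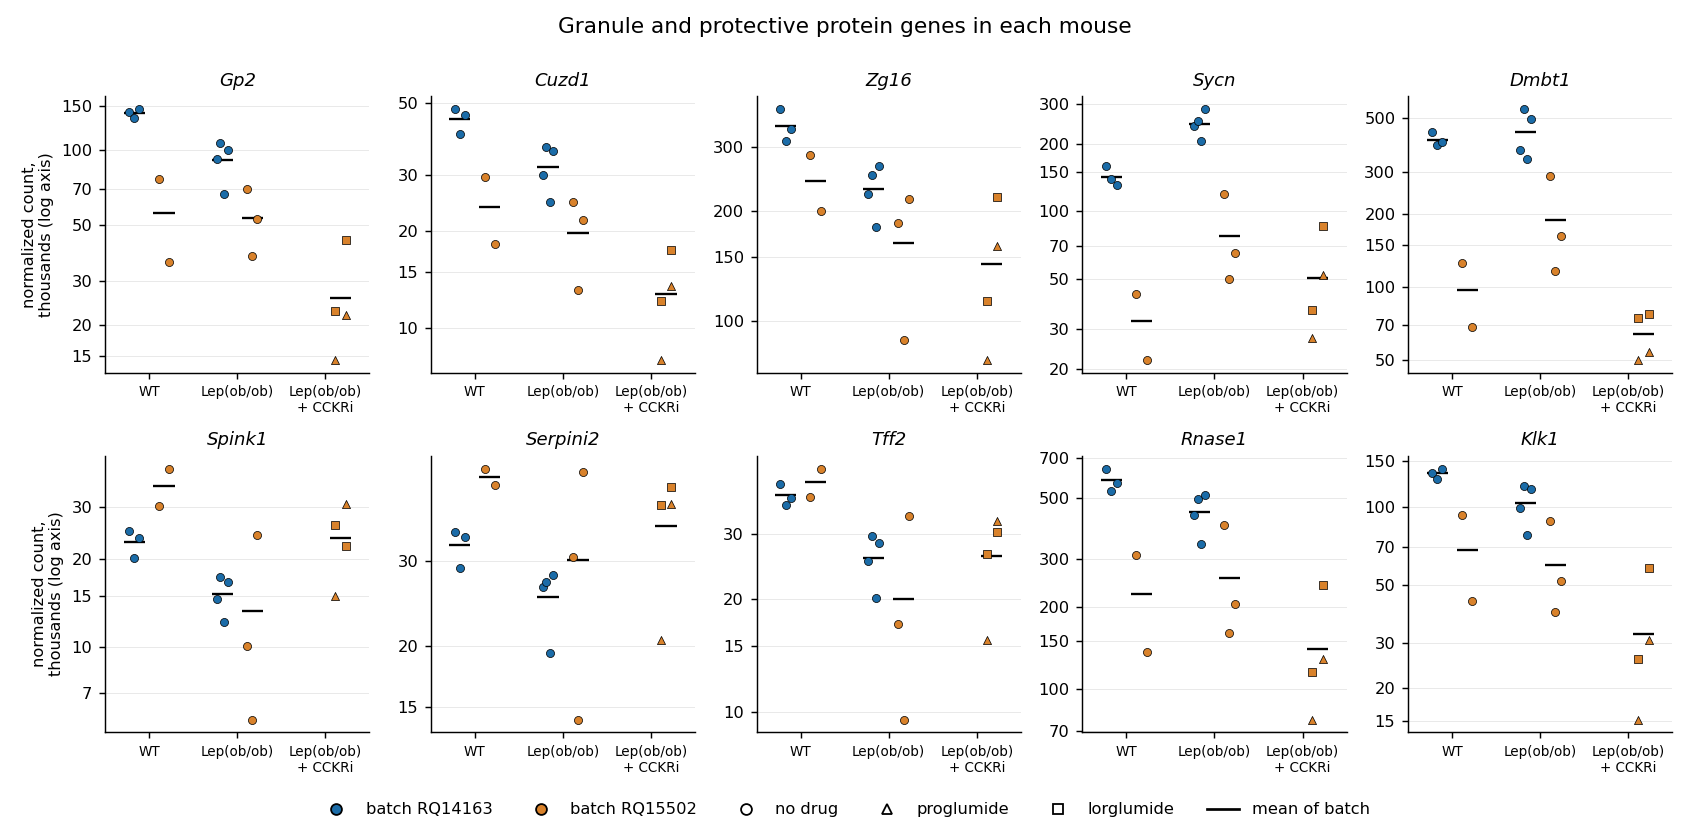
Normalized counts of the 10 genes in each of the 16 mice (points, vertical log axis), by group on the horizontal axis and by sequencing batch (blue RQ14163, orange RQ15502), with symbols for the antagonist and bars for the mean of a batch. Sycn is the gene whose untreated Lep(ob/ob) mice lie above WT within both batches, Spink1 and Tff2 lie below WT in both, and for Sycn and Dmbt1 every orange mouse lies below every blue mouse of its group.

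The first comparison asks which of these genes differ between obese and lean pancreas. No member passed the threshold over all 16 mice by edgeR's quasi-likelihood test with batch in the model (0 of 10 at an adjusted p under 0.05, 3 at an unadjusted p under 0.05, as were 3245 of the 13660 genes tested), whereas 9.07% of those genes did. The members' median log2 fold change was -0.41, beside -0.02 over all genes tested. By DESeq2, 3 of 10 passed (12.4% of genes tested), namely Sycn as higher and Spink1 and Tff2 as lower. These 3 were also the members whose normalized counts in Lep(ob/ob) and WT mice did not overlap and differed the same way within both batches, as did those of 7.36% of 17548 genes. In bulk tissue, fewer acinar cells and less RNA per acinar cell cannot be told apart.

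Among the granule proteins, Sycn (syncollin, a small protein that binds the inner face of the granule membrane) was the only one with a higher level in all Lep(ob/ob) mice than in all WT mice of the same batch. In RQ14163 it was at 158828, 138818 and 130983 normalized counts in WT and at 238831, 252645, 206525 and 285493 in Lep(ob/ob) mice. In RQ15502 it was at 43051 and 21898 in WT and at 119113, 50107 and 65115 in Lep(ob/ob) mice. The groups were apart within each batch, whereas across batches WT mice of RQ14163 exceeded the Lep(ob/ob) mice of RQ15502. The fitted change over both batches was a log2 fold change of 0.97 (SE 0.31), 1.95-fold, with an adjusted p of 0.0642 by edgeR. In 12 fits that left out 1 mouse, the log2 fold change of Sycn ran from 0.79 to 1.06, with edgeR adjusted p of 0.0431 to 0.178. Only 1 of these fits passed the threshold, that without Lep(ob/ob) mouse 463 (1.05, edgeR adjusted p of 0.0431).

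Zg16, a lectin that links the granule content to the membrane, was lower in all Lep(ob/ob) than in all WT mice of RQ14163, at 222630, 251138, 180694 and 266107 against 382819, 313126 and 336735 normalized counts. In RQ15502 the groups overlapped, at 186194, 88335 and 216332 in Lep(ob/ob) and 285730 and 200457 in WT mice. Gp2, the most abundant glycoprotein of the granule membrane, followed the same pattern, at 91687, 106335, 66867 and 100249 in Lep(ob/ob) and 141698, 134373 and 145878 in WT mice of RQ14163. In RQ15502 Gp2 was at 70110, 37739 and 53143 in Lep(ob/ob) and at 76392 and 35774 in WT mice, so these overlapped. Cuzd1, a granule protein with CUB and zona pellucida domains, ranged from 24654 to 36457 in Lep(ob/ob) and from 40145 to 48024 in WT mice of RQ14163, and overlapped in RQ15502. The fitted log2 fold changes were -0.59 (SE 0.28) for Zg16, -0.41 (SE 0.28) for Gp2 and -0.42 (SE 0.22) for Cuzd1, none past the threshold. Dmbt1, a large mucin-like glycoprotein of the granule, overlapped in both batches and had a log2 fold change of 0.43 (SE 0.29, edgeR adjusted p of 0.397).

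Of the inhibitors, Spink1, which binds trypsin that becomes active too early, was lower in all Lep(ob/ob) mice than in all WT mice within each batch. In RQ14163 it was at 14590, 17303, 12178 and 16729 normalized counts in Lep(ob/ob) and at 24835, 20097 and 23492 in WT mice. In RQ15502 it was at 10102, 5677 and 24142 in Lep(ob/ob) and at 30246 and 40628 in WT mice. Lep(ob/ob) mouse 464, at 24142, stood above the other 6 of its group and within the range of the WT mice of the other batch. The fitted log2 fold change of Spink1 was -0.94 (SE 0.30), 0.52-fold, with an edgeR adjusted p of 0.0587. In 12 fits that left out 1 mouse it ran from -1.15 to -0.75, with edgeR adjusted p of 0.0227 to 0.164. Only 1 of these fits passed, that without mouse 464, the highest of its group (-1.15, edgeR adjusted p of 0.0227). Serpini2, a serpin made by acinar cells, was lower in Lep(ob/ob) mice of RQ14163, at 19386 to 28096 against 28968 to 34461 in WT, and overlapped with WT in RQ15502 (log2 fold change -0.46, SE 0.25, edgeR adjusted p of 0.292).

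Tff2, a trefoil peptide secreted with mucus in stomach and also made in pancreas, was also lower in all Lep(ob/ob) mice than in all WT mice within each batch. In RQ14163 it was at 25393, 29583, 20202 and 28267 normalized counts in Lep(ob/ob) and at 40698, 35794 and 37388 in WT mice. In RQ15502 it was at 17235, 9548 and 33403 in Lep(ob/ob) and at 37620 and 44806 in WT mice. All Lep(ob/ob) values lay below all WT values over both batches, and mouse 464 was again the highest of its group. The fitted log2 fold change of Tff2 was -0.77 (SE 0.27), 0.588-fold, with an edgeR adjusted p of 0.0844. In 12 fits that left out 1 mouse it ran from -0.93 to -0.60, with edgeR adjusted p of 0.0314 to 0.200. Only 1 of these fits passed, that without mouse 464 (-0.93, edgeR adjusted p of 0.0314). Of 9 genes that mark stomach and intestine, Gkn1, Gkn2 and Alpi had 0 reads in all 16 mice, Muc5ac and Fabp2 had 0 in 15, Fabp1, Lgals4 and Muc2 had at most 22, 16 and 21 reads, and Vil1 had 12 to 297. The median over the 16 mice was 93.5 reads for Vil1 and at most 4 for each other gene, so their sum rests mainly on Vil1. The 9 genes together were at 1.06 to 1.97 CPM in WT mice, whereas untreated Lep(ob/ob) mice had 5.24 to 11.2 and treated ones 9.08 to 17.2. Their mean log2 CPM overlapped, at -2.55 to -2.06 in WT and -2.29 to -1.80 in untreated Lep(ob/ob) mice. Of the 2 that could be tested, 1 was higher in Lep(ob/ob) mice, by 2.88 on the log2 scale, and the other stood at -0.40. The part of these 9 genes in the Tff2 values was not tested.

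The secreted enzymes Rnase1, which degrades RNA in the gut, and Klk1, which releases kinins from kininogen, were lower in Lep(ob/ob) than in WT mice of RQ14163 without overlap and overlapped in RQ15502. Rnase1 was at 338999 to 511489 normalized counts in Lep(ob/ob) and 532932 to 642154 in WT mice of RQ14163, and at 160131 to 397919 and 136316 to 308212 in RQ15502. Klk1 was at 78039 to 120185 and 128021 to 140688 in RQ14163, and at 39246 to 88068 and 43477 to 93230 in RQ15502. Their fitted log2 fold changes over both batches, -0.17 (SE 0.33) and -0.32 (SE 0.31), were within about 1 SE of 0.

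Each batch was also taken by itself. In RQ14163, 8 of 10 genes were lower in Lep(ob/ob) mice without overlap, as were 8.53% of all genes, while in RQ15502 only Sycn, Spink1 and Tff2 did not overlap, and 29.7% of all genes did not. Fitted on RQ14163 alone, 5 of 10 passed the edgeR test (8.68% of genes), with Sycn higher at a log2 fold change of 0.83 (SE 0.13, adjusted p of 0.00304) and Gp2, Zg16, Spink1 and Tff2 lower at -0.58, -0.54, -0.54 and -0.51. Fitted on RQ15502 alone, 0 of 10 passed (1 at an unadjusted p under 0.05, as were 2377 of 14045 genes), and only 0.057% of all genes did. There the log2 fold changes of the 3 genes apart in both batches were 1.23 for Sycn, -1.43 for Spink1 and -1.06 for Tff2, with SEs of 0.65, 0.59 and 0.55. The difference between the batches in the genotype effect was itself tested, and passed for 0 of 10 members and 0% of 13189 genes by edgeR. At an unadjusted p under 0.05 were 0 members and 1574 of these genes, and DESeq2 called 0 members and 0.394% of genes. By edgeR the members' log2 differences between the batches ran from -0.86 (Spink1) to 0.80 (Dmbt1), with SEs of 0.42 to 0.62. With SEs of that size, this test does not show that the batches were alike. In 12 fits of this difference that left out 1 mouse, 0 to 1 members passed by edgeR. A member passed only without Lep(ob/ob) mouse 464, Spink1 at a log2 difference of -1.69 (SE 0.38, edgeR adjusted p of 0.0227), as did 9.79% of genes.

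The batches also differed in level. With genotype and treatment in the model, 6 of 10 members differed between the batches at an edgeR adjusted p under 0.05, as did 35.7% of all genes, in either direction. All 6 members were lower in RQ15502 than in RQ14163, and the share of all genes that were lower was not taken. The log2 differences were -1.86 (SE 0.32) for Sycn, -1.56 (SE 0.30) for Dmbt1, -1.05 for Rnase1, -0.88 for Klk1 and -0.78 for Cuzd1, with Gp2 between Rnase1 and Klk1. Zg16, Tff2, Spink1 and Serpini2 did not pass, at -0.50, -0.17, 0.16 and 0.34. Scaled by the digestive enzymes as described below, the differences of all 10 members stood above those without this scaling. Sycn stood at -0.87, Dmbt1 at -0.56, Rnase1 at -0.06, Gp2 at 0.0023, Klk1 at 0.11 and Cuzd1 at 0.23. Zg16 stood at 0.49, Tff2 at 0.85, Spink1 at 1.17 and Serpini2 at 1.33. The median of all genes on this scale was not taken for the batches, so these signs are relative to the enzymes only.

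The next comparison sets the genes against the digestive enzymes, that is, against acinar content. For this, each library was scaled by the geometric mean count of the 24 enzymes in place of edgeR's TMM factors, so that a change is one relative to the enzymes. This scaling moved the median of all genes to 0.21 in Lep(ob/ob) against WT, and changes below are read beside that value. When 1 mouse was left out, this median ran from 0.044 (without Lep(ob/ob) mouse 463) to 0.28 (without WT mouse 59). The share of counts on enzymes was not shown to differ between Lep(ob/ob) and WT mice (difference of mean log2 share -0.01, exact permutation test within batch, two-sided p = 0.900, smallest possible p = 0.00286).

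Relative to the enzymes, Sycn rose and Zg16 fell in Lep(ob/ob) mice (2 of 10 members by edgeR, 4.9% of genes tested). The ratio of the Sycn count to the enzyme mean was 1.27, 1.31 and 1.05 in WT and 2.25, 2.33, 2.39 and 2.21 in Lep(ob/ob) mice of RQ14163. In RQ15502 it was 0.574 and 0.460 in WT and 1.90, 1.49 and 1.07 in Lep(ob/ob) mice. The groups were apart in both batches, and the spread over the Lep(ob/ob) mice of RQ14163 was narrow. The fitted log2 fold change of Sycn was 1.17 (SE 0.16), 2.24-fold, with an edgeR adjusted p of 2.5e-04, and it passed the threshold in each of 12 fits that left out 1 mouse. It was 1.52 with an adjusted p of 0.263 on RQ15502 alone, where 0.0285% of genes passed.

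The ratio of Zg16 was 3.06, 2.95 and 2.70 in WT and 2.10, 2.32, 2.09 and 2.06 in Lep(ob/ob) mice of RQ14163, and 3.81 and 4.21 against 2.97, 2.62 and 3.54 in RQ15502. Lep(ob/ob) mice were below WT within both batches. The fitted log2 fold change was -0.42 (SE 0.10, edgeR adjusted p of 0.0156). This call was lost under other settings. Against the summed enzyme count Zg16 stood at -0.46 with an adjusted p of 0.0511, beside a median of 0.16 over all genes. Against the enzymes without amylase, Try and Prss genes it stood at -0.22 with 0.247, beside a median of 0.40. The call was also lost without the batch term (-0.40, edgeR adjusted p of 0.373), on RQ15502 alone (-0.40, 0.721) and without WT mouse 5489 (0.0601). Under each of the 2 other enzyme scales the members called were Sycn and Dmbt1, both higher (2 of 10, where 3.73% and 6.36% of genes passed). Dmbt1 was at a log2 fold change of 0.62 (SE 0.20, adjusted p of 0.110) under the geometric mean, 0.58 (adjusted p of 0.0492) under the sum and 0.81 (adjusted p of 0.00578) without those genes.

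Spink1 was the third gene whose ratio to the enzymes was apart in both batches, lower in Lep(ob/ob) mice. Such a pattern held for Sycn, Zg16 and Spink1 among the members and for 5.09% of all genes. The Spink1 ratio was 0.199, 0.189 and 0.188 in WT and 0.137, 0.160, 0.141 and 0.129 in Lep(ob/ob) mice of RQ14163, and 0.403 and 0.853 against 0.161, 0.169 and 0.395 in RQ15502. The fitted log2 fold changes of Spink1 and Tff2 relative to the enzymes were -0.84 (SE 0.26) and -0.65 (SE 0.20), with edgeR adjusted p of 0.0855 and 0.0830. With the enzyme mean as a covariate on the TMM scale instead, 4 of 10 members passed (11.3% of genes), with Sycn higher at 1.19 and Zg16, Spink1 and Tff2 lower at -0.40, -0.87 and -0.67. Gp2, Cuzd1, Klk1, Rnase1 and Serpini2 did not pass under either form, at -0.20, -0.22, -0.11, 0.04 and -0.32 relative to the enzymes.

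**Figure D2:**
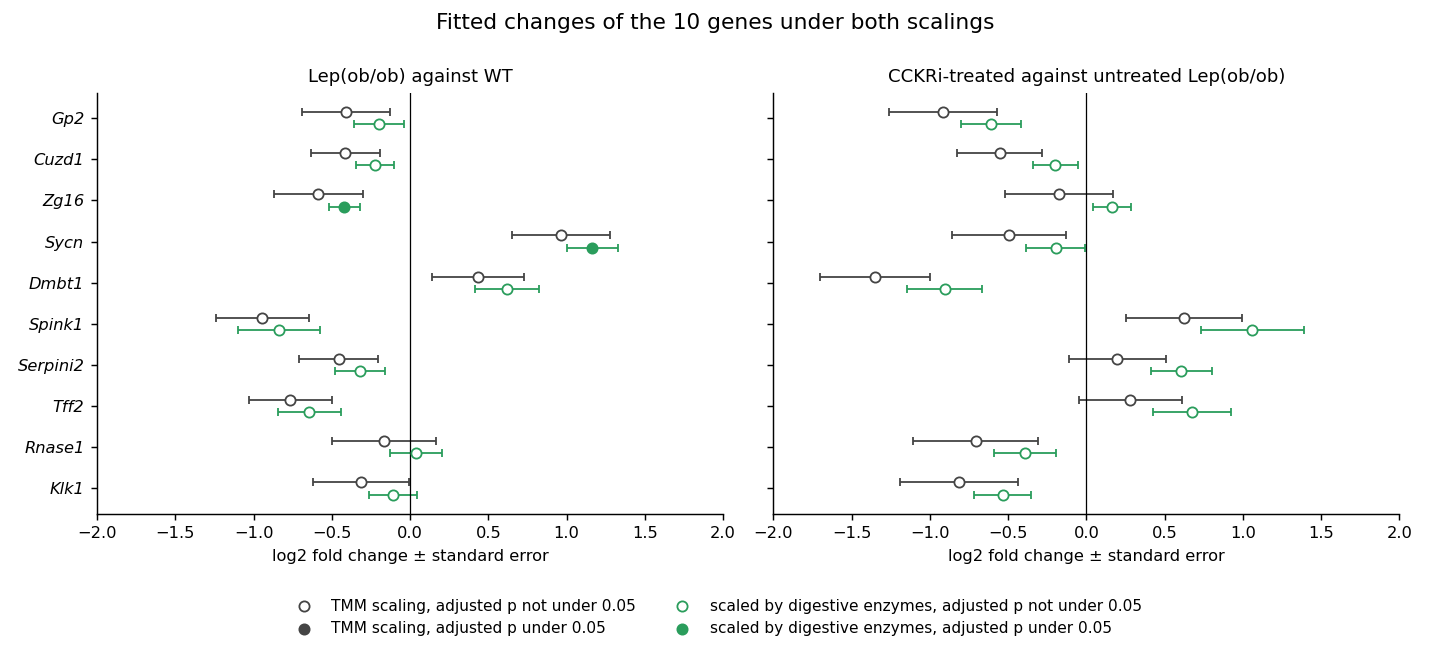
Fitted log2 fold changes of the 10 genes (points, horizontal axis) with their standard errors (bars), under TMM scaling (grey) and scaled by the digestive enzymes (green), for Lep(ob/ob) against WT on the left and CCKRi-treated against untreated Lep(ob/ob) mice on the right. Filled points, Sycn and Zg16 on the left, have an edgeR adjusted p under 0.05, and on the right Spink1, Serpini2 and Tff2 lie to the right of 0 while Dmbt1, Gp2 and Klk1 lie to the left.

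The last comparisons concern the CCK receptor antagonists, which block the receptors of a hormone that drives acinar secretion. Against untreated Lep(ob/ob) mice, 0 of 10 members passed edgeR's test in CCKRi-treated mice (3 at an unadjusted p under 0.05, as were 1951 of 13660 genes), and 0.0586% of all genes did, while DESeq2 called 1 member, Dmbt1 (0.673% of genes). The members' median log2 fold change was -0.53, beside -0.01 over all genes. When 1 mouse was left out, the members' median ran from -0.81 (without treated mouse 76) to -0.24 (without untreated mouse 461). Of the marker lists, macrophage genes had a median of -1.18 (6 of 7 at an unadjusted p under 0.05) and stroma genes of -0.87 (5 of 6), with 0 called in either. Scaled by the enzymes, 0 genes of either list were at an unadjusted p under 0.05. The medians on that scale were -0.85 and -0.56, beside 0.35 over all genes. Mice 463 and 69 were again the highest of their groups, with macrophage sums of 621 and 295 CPM against 98.2 to 180 and 72.2 to 99.8 in the other untreated and treated mice of the batch, and stroma sums of 2038 and 1183 against 434 to 844 and 335 to 500.1. The enzyme share of counts in RQ15502 was 60.0%, 43.7% and 51.9% in untreated and 32.4%, 44.4%, 41.5% and 53.6% in CCKRi-treated mice, and the difference of mean log2 share was -0.28 (exact permutation test, two-sided p = 0.229, smallest possible p = 0.0286). The part of these markers and of this share in the values below was not tested. The 2 antagonists were given at different doses, so their values are set side by side and not compared.

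Dmbt1 had the lowest log2 fold change of the members, -1.35 (SE 0.35), with an edgeR adjusted p of 0.222 and a DESeq2 adjusted p of 0.00305. It was at 50219 and 54066 normalized counts in the proglumide mice, 74879 and 77802 in the lorglumide mice, and 287435, 116626 and 162869 in untreated Lep(ob/ob) mice of the same batch. All 4 treated mice were below all 3 untreated mice, which held for Dmbt1 alone among the members and for 3.54% of all genes. WT mice of that batch were at 126409 and 68417, so the treated mice overlapped with WT. Gp2 was at 14509 and 21843 with proglumide, 22744 and 43857 with lorglumide, and 70110, 37739 and 53143 without drug, with 1 treated value above the lowest untreated one (log2 fold change -0.92, SE 0.34, edgeR adjusted p of 0.289). Klk1 was at 15175 and 30627 with proglumide, 26069 and 58190 with lorglumide and 39246 to 88068 without drug (log2 fold change -0.81, SE 0.38, edgeR adjusted p of 0.345).

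Cuzd1, Rnase1 and Sycn had log2 fold changes of -0.56 (SE 0.27), -0.71 (SE 0.40) and -0.50 (SE 0.36) in treated against untreated mice, and Zg16 of -0.18 (SE 0.35). Sycn was at 27481 and 52160 normalized counts with proglumide and 36433 and 86584 with lorglumide, and overlapped with both untreated Lep(ob/ob) and WT mice of the batch. Spink1 was at 14999 and 30727 with proglumide and 26060 and 22178 with lorglumide, and the untreated mice at 10102, 5677 and 24142 overlapped with these (log2 fold change 0.62, SE 0.37, edgeR adjusted p of 0.444). Tff2 was at 15605 and 32421 with proglumide and 26497 and 30300 with lorglumide (log2 fold change 0.28, SE 0.33). Serpini2 was at 20581 and 39367 with proglumide and 39136 and 42630 with lorglumide (log2 fold change 0.20, SE 0.31).

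Relative to the enzymes, the median of all genes stood at 0.35 in treated against untreated mice. When 1 mouse was left out, it ran from 0.091 (without treated mouse 69) to 0.66 (without untreated mouse 463). On this scale 0 of 10 members passed the edgeR test (6 at an unadjusted p under 0.05, as were 2417 of 13660 genes), and 0.00732% of genes did. The log2 fold changes of these 6 were 1.06 (SE 0.33) for Spink1, 0.68 (SE 0.25) for Tff2, 0.61 (SE 0.20) for Serpini2, -0.91 (SE 0.24) for Dmbt1, -0.61 (SE 0.19) for Gp2 and -0.54 (SE 0.18) for Klk1, with adjusted p of 0.197 to 0.203. The ratio of Spink1 to the enzymes was 0.625 and 0.680 with proglumide and 0.711 and 0.368 with lorglumide, against 0.161, 0.169 and 0.395 without drug and 0.403 and 0.853 in WT mice of that batch. The ratio of Dmbt1 was 2.09 and 1.20 with proglumide and 2.04 and 1.29 with lorglumide, against 4.59, 3.46 and 2.67 without drug and 1.69 and 1.44 in WT mice. In these ratios Dmbt1, Gp2 and Cuzd1 were lower in all treated than in all untreated mice, as were 0.268% of all genes. In 11 fits that left out 1 mouse, 0 to 4 members passed, and any passed only without lorglumide mouse 76. The ratio of Spink1 in this mouse was the lowest of the 4 treated mice. Without it 4 of 10 members passed, namely Spink1 (1.23) and Serpini2 as higher and Gp2 and Klk1 as lower. In that fit 7.33% of all genes passed, 1018 as higher and 9 as lower.

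**Figure D3:**
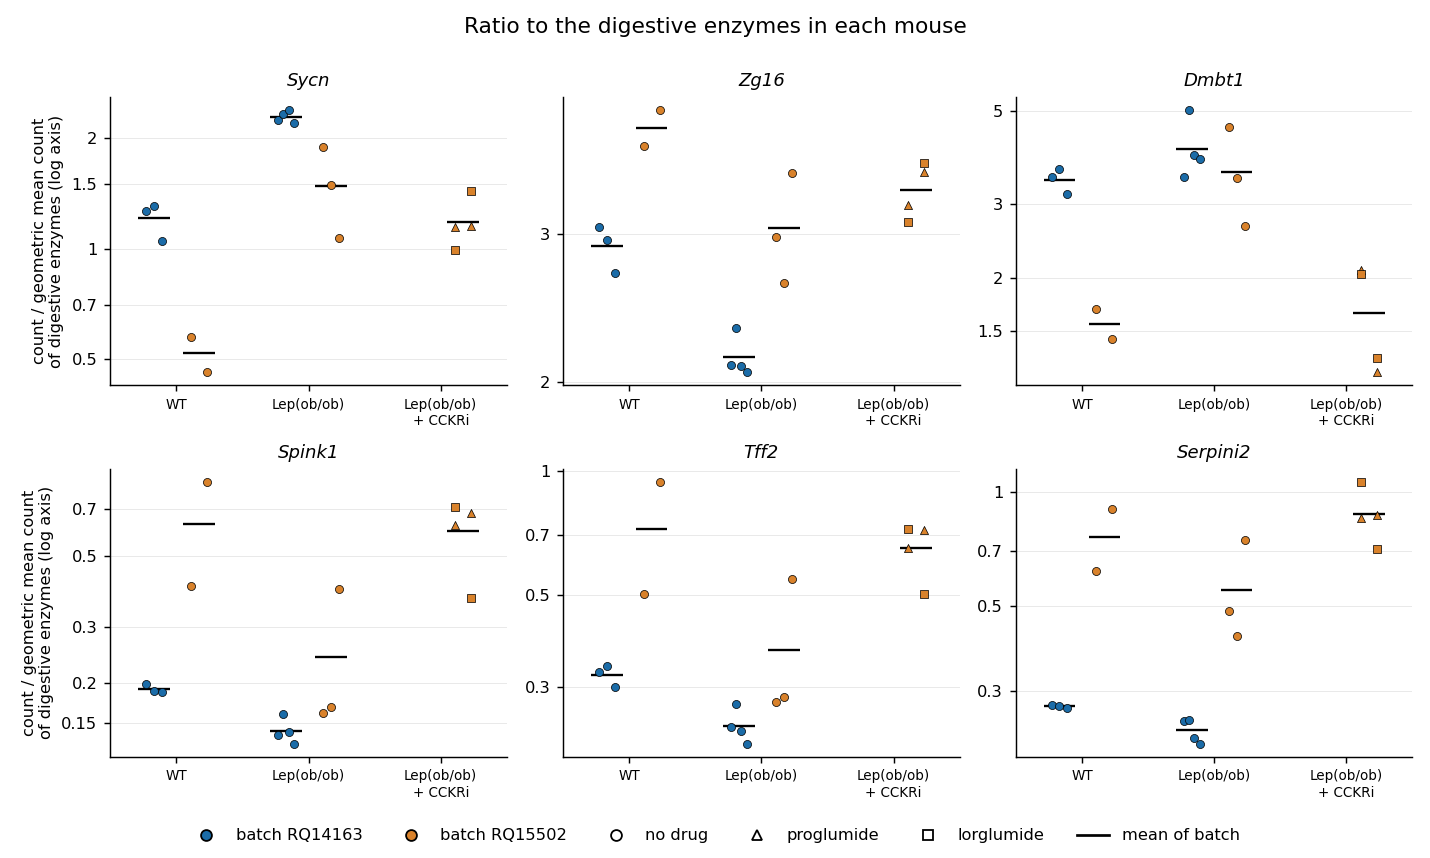
Count of 6 genes divided by the geometric mean count of 24 digestive enzymes in each mouse (points, vertical log axis), by group on the horizontal axis and by sequencing batch (blue RQ14163, orange RQ15502), with symbols for the antagonist and bars for the mean of a batch. The ratio of Sycn is 1.05 to 1.31 in WT and 2.21 to 2.39 in Lep(ob/ob) mice of the blue batch, and the treated mice of the orange batch lie at 0.994 to 1.44, above its WT mice at 0.460 and 0.574 and overlapping with its untreated mice at 1.07 to 1.90.

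Against WT mice, 1 of 10 members passed the edgeR test in CCKRi-treated mice, beside 5.57% of genes tested. This was Gp2, which fell with a log2 fold change of -1.33 (SE 0.38), 0.399-fold, and an adjusted p of 0.0485. The treated mice at 14509 to 43857 normalized counts overlapped with the WT mice of the same batch at 76392 and 35774, and the call was lost in 7 of 9 fits that left out 1 mouse, with adjusted p up to 0.210, and on RQ15502 alone (-1.11, adjusted p of 0.546). DESeq2 called 4 members lower (7.79% of genes), Gp2, Cuzd1, Klk1 and Dmbt1. Cuzd1 stood at -0.97 (SE 0.29, edgeR adjusted p of 0.0619), Klk1 at -1.13 (SE 0.40), Dmbt1 at -0.92 (SE 0.38), Rnase1 at -0.88 (SE 0.44), Zg16 at -0.76 (SE 0.37), Tff2 at -0.49 (SE 0.34), Spink1 at -0.32 (SE 0.38), Serpini2 at -0.26 (SE 0.33) and Sycn at 0.47 (SE 0.40). Scaled by the enzymes, an alternative added after the data had been seen, 2 of 10 passed (5.98% of genes), Sycn at 0.97 with an adjusted p of 0.00732 and Gp2 at -0.81 with 0.0248, beside a median of 0.57 over all genes. This comparison shares its treated or its WT mice with the others, so their values are set side by side and not compared.

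The correlations between the genes are described here in 2 sets that were drawn from the same values, so that high r within and low r between them are no finding. Gp2, Cuzd1, Klk1, Rnase1, Dmbt1 and Sycn correlated with each other at a Pearson r of 0.745 to 0.987 (log2 CPM, 16 mice, 15 pairs), and Spink1, Tff2 and Serpini2 at 0.822 to 0.908 (3 pairs), while the 18 pairs between both sets ran from -0.298 to 0.529. After subtracting the mean of each group and batch, the ranges were 0.765 to 0.979, 0.876 to 0.964 and -0.01 to 0.769, so the ranges within and between the sets met, Serpini2 reaching 0.769 with Cuzd1 and 0.881 with Zg16. Zg16 had an r of 0.573 to 0.927 with the set of 6 genes, of 0.446 to 0.769 with the set of 3 genes and of 0.904 with the enzyme mean. The r with the enzyme mean was 0.844 to 0.969 for the set of 6 genes, and 0.131 for Spink1, 0.516 for Tff2 and 0.145 for Serpini2. Within group and batch the last 3 values were 0.534, 0.703 and 0.835, so the weak correlation of Serpini2 over all mice did not hold within groups and batches. All values of a mouse share 1 library and its depth, and mice differed by batch, so these r are descriptions.

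**Figure D4:**
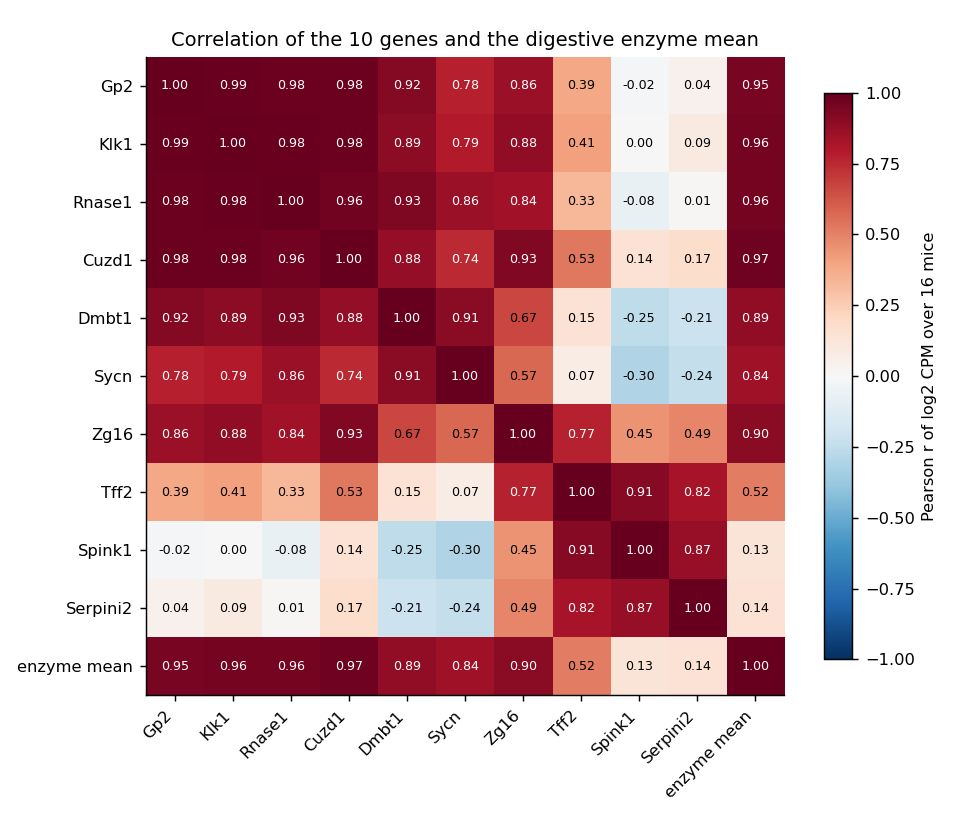
Pearson r of log2 CPM over the 16 mice between each pair of the 10 genes and with the mean of 24 digestive enzymes (cells, colour scale from -1 to 1, value printed in each cell). The set from Gp2 to Sycn is dark with the enzymes, the corner of Tff2, Spink1 and Serpini2 is dark within itself at 0.82 to 0.91, and Zg16 reaches 0.93 with Cuzd1 and 0.77 with Tff2.

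Of 10860 genes with a mean of at least 1 on the log2 CPM scale, the 3 with the highest Pearson r to a member over the 16 mice are named here for the members other than Cuzd1. Gp2 was most like Klk1, Ctrl and Slc38a5 (r of 0.987, 0.986 and 0.983), Klk1 most like Cpb1, Ctrl and Gp2 (0.990, 0.989 and 0.987), and Rnase1 most like Dap, Cpa1 and Ctrl (0.997, 0.997 and 0.996). Zg16 was most like Cela1 (0.990), Cabp2 and Slc35f5, Cela1 being an elastase. Sycn was most like Pla2g12a (0.974), Bmp7 and Ptprn2, and Dmbt1 most like Muc1 (0.988), Wdtc1 and Egf. Spink1 was most like Sec61b (0.980), Mrps24 and Ppapdc1b, Tff2 most like Fkbp11 (0.985), Lcmt1 and Rps15, and Serpini2 most like Asnsd1 (0.965), Wbp5 and Tmed6, with no digestive enzyme among them.

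Other genes of the granule and of acinar identity were measured in the same fits. Of 24 digestive enzymes tested, 1 was higher and 4 lower in Lep(ob/ob) against WT mice under TMM scaling (median log2 fold change -0.19), where 9.07% of all genes passed. These were the trypsinogen Prss1 at 3.72, and the elastase Cela3a at -2.29, the chymotrypsin Ctrc at -1.43, the amylase Amy2a5 at -1.05 and the phospholipase Pla2g1b at -1.01. Of 11 genes of the granule membrane and exocytosis, Cplx2, a complexin that controls membrane fusion, rose by 1.60 (SE 0.33), and Rab27b, a granule GTPase, fell with a log2 fold change of -0.82 (SE 0.18), and 9 did not pass. Of 7 acinar transcription factors only Ptf1a, which drives acinar gene expression, passed, at -1.03 (SE 0.21, edgeR adjusted p of 0.00561). Of the trefoil, mucin and other protective genes listed, 4 of 7 were tested and Pigr, the receptor that carries antibodies across epithelia, was lower at -0.74, a call lost when scaled by the enzymes (-0.60, edgeR adjusted p of 0.173). Of 13 Klk1b copies of Klk1, 6 were tested, and 3 were lower in Lep(ob/ob) mice, with Klk1b11 at -2.21, Klk1b24 at -1.21 and Klk1b3 at -0.89. In CCKRi-treated mice against WT all 6 were lower, from -1.18 to -3.37, where 1.35% of all genes were lower, while Klk1 itself did not pass. These copies share stretches with Klk1, so reads could be split between them and Klk1. Against untreated Lep(ob/ob) mice, CCKRi treatment gave 0 calls in all 5 of these lists by edgeR, with medians of -0.51 for the enzymes, 0.17 for the exocytosis genes, -0.03 for the acinar transcription factors, -1.13 for the protective genes (3 of 4 at an unadjusted p under 0.05) and -0.77 for the Klk1b copies (3 of 6).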

How the data were processed

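PolyA-selected, strand-specific (dUTP) libraries were made from pancreas RNA, 1 library per mouse. Per the labels and processing notes, reads were trimmed with Trim Galore 0.6.7 (cutadapt 3.5), aligned to mm10 with STAR 2.7.9 and normalized with DESeq2. The counter, its strand setting and its annotation are not given in the sources used here. The authors deposited raw read counts per gene (24411 genes), and a table of normalized counts (17548 genes), a signal the authors made by dividing counts by DESeq2 size factors.

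Raw counts were tested with edgeR 4.0.16 (R 4.3.3, limma 3.58.1; quasi-likelihood, TMM, filterByExpr), with 3 groups and batch as terms, over 13660 genes, and p was adjusted by Benjamini-Hochberg over all of them with a threshold of 0.05. Standard errors were derived from the log2 fold change and the F statistic. A second fit scaled libraries by the geometric mean of 24 digestive enzymes (pseudocount 0.5). Ratios to the enzymes and normalized counts are given per mouse. Enzyme shares were compared by exact permutation tests. Alternatives included DESeq2 1.42.0, other filters and scalings, single batches and leaving out each mouse. Python 3.11.15, numpy 2.4.6, scipy 1.17.1 and pandas 2.3.3 were used.

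On simulated counts for Lep(ob/ob) against WT over 13660 genes, the test recovered 76% of 100 genes changed 2-fold and 98% of 100 changed 4-fold. For the genotype by batch interaction it recovered 67.5% of 200 genes changed 4-fold in the Lep(ob/ob) mice of RQ15502 only. Depth ran from 9870673 to 34452570 counts per mouse, and the shallower batch held all treated mice. Named genes were the 10 members, the 3 genes most correlated with each (not reported here for Cuzd1), and those of the other lists that passed the test. The members and lists were chosen with earlier results of these data known. No litter or cage is given, so the p-values measure the spread between these mice.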

Additional observations from a re-analysis of the deposited data

Results flagged for a closer look

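In 60 sets of values (10 genes, 3 groups of 4 to 7 mice, normalized count and ratio to the enzymes, on the log2 scale), 4 had a mouse whose gap to its neighbour, divided by the range of the group, passed Dixon's 95% value, where chance gives about 1 in 20 groups, here 3. Zg16 in Lep(ob/ob) mouse 463 was the lowest of 7 (gap over range 0.649), at 88335 against 180694 to 266107 normalized counts. In Lep(ob/ob) mouse 464 the ratio to the enzymes was the highest of 7 for Spink1 (0.762), at 0.395 against 0.129 to 0.169, and for Tff2 (0.715), at 0.547 against 0.218 to 0.284. These sets pool both batches, only 2 of the other 6 mice share the batch of mouse 464, and relative to the enzymes Spink1 and Tff2 were higher in that batch by 1.17 and 0.85 on the log2 scale. Serpini2 in CCKRi-treated mouse 69 was the lowest of 4 (0.883), at 20581 against 39136 to 42630 normalized counts. Mice 463 and 69 are also those with the highest adipocyte marker sums, and the part of fat tissue in these values was not tested.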

How the results depend on the processing

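Of 440 single-gene values under other settings, 388 kept their direction and side of the threshold, 25 passed it newly, 10 lost it and 17 changed sign. When 1 mouse was left out, these numbers were 525, 12, 8 and 5 of 550. For Lep(ob/ob) against WT, where 0 members passed, 3 passed with DESeq2 (12.4% of all genes, against 9.07% in the main design), 1 with only both groups in the fit (9.2%), 4 with the enzyme mean as covariate (11.3%) and 5 in batch RQ14163 alone (8.68%), and 0 to 2 when 1 mouse was left out (2 without Lep(ob/ob) mouse 464, 10.5%). For CCKRi-treated against untreated mice (0, and 0.0586% of all genes), 1 passed without the batch term (4.17%) and 1 with DESeq2 (0.673%). For CCKRi-treated mice against WT (1, and 5.57% of all genes), 4 passed without the batch term (10.5%), 4 with DESeq2 (7.79%), 2 with the enzyme covariate (9.66%) and 2 scaled by the enzymes (5.98%, chosen after seeing the data), and 0 without a filter (4.09%), with at least 10 counts in every mouse (3.91%), with only both groups (2.18%), in RQ15502 alone (0.0926%) or with lorglumide alone (5.34%), and 0 to 3 when 1 mouse was left out (3 without treated mouse 76, 5.05%). Relative to the enzymes, Lep(ob/ob) against WT (2, and 4.9% of all genes) gave 1 without the batch term (3.16%), 0 in RQ15502 alone (0.0285%) and 1 to 4 when 1 mouse was left out (4 without mouse 464, 4.93%), and treated against untreated mice (0) gave 0 to 4 (4 without mouse 76, 7.33%). The interaction of genotype and batch (0) gave 0 to 1 (1 without mouse 464, 9.79%). The cause of these moves was not tested, except that single batches hold fewer mice.

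The enzyme share in Lep(ob/ob) against WT (-0.01) ran from -0.11 to 0.057 when 1 mouse was left out. For treated against untreated mice it was -0.45 over all mice of both batches (exact permutation p = 0.0182). That permutation ignored batch, although all treated mice were in RQ15502. Within RQ15502 the difference was -0.28 (exact permutation p = 0.229). Signs changed as follows. For Lep(ob/ob) against WT, Rnase1 was 0.070 with the enzyme covariate and 0.16 in RQ15502 alone. For treated against untreated mice, Zg16 was 0.22 with the covariate, 0.054 with lorglumide alone and -0.46 to 0.034 when 1 mouse was left out, and Serpini2 was -0.052 with proglumide alone and -0.060 to 0.45. For treated mice against WT, Sycn was -0.96 without the batch term, Spink1 0.071 and Serpini2 0.27 with the covariate, and Spink1, Serpini2 and Tff2 were 0.22, 0.29 and 0.032 scaled by the enzymes. Relative to the enzymes in Lep(ob/ob) against WT, Gp2 and Klk1 were 0.23 and 0.079 in RQ15502 alone, Klk1 was 0.076 without amylase, Try and Prss genes, and Rnase1 was -0.0073 against the summed count and -0.11 to 0.10 when 1 mouse was left out. In treated against untreated mice, Cuzd1 and Sycn were 0.045 and 0.070 against the summed count, and Sycn ran from -0.30 to 0.0047. No paired analysis was possible because the mouse numbers are not shared between groups. Depth was lower in RQ15502, which also held fewer WT and fewer untreated Lep(ob/ob) mice than RQ14163. The part of depth in the spread of its values was not tested.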
